A study of Mus musculus with 12 samples.

Results

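The genes described here are those of the hypoxia response and of glycolysis, 36 genes chosen by symbol: 2 hypoxia-inducible factor (HIF) subunits, 15 HIF target genes outside glycolysis, 3 glucose and lactate transporters, 2 PFKFB enzymes and 14 core glycolytic enzymes. Of the 36, 35 were found among the 14496 genes of the deposited table, and all 35 passed the filter on low values that left 14008 genes. Egln3, the remaining HIF target, was not analysed here. RNA was sequenced from whole subcutaneous tumors of Renca cells, a renal carcinoma line of BALB/c origin, injected under the skin of BALB/C mice and harvested on day 14. All 12 tumors were subcutaneous: 6 grew in mice that also carried an intra-kidney tumor (the IK group), and 6 grew with no such tumor (the SC group, called alone below). No label names a further treatment or a genetic change in either group. Each library holds RNA of tumor cells and stroma together, so that fewer cells of a type and less RNA per cell cannot be told apart. No label ties a tumor to a mouse of its own, and the p-values therefore cover the spread among these 12 libraries, part of which may be technical. Levels are log2 CPM (reads of a gene scaled to a fixed library size), and differences are the IK group minus the alone group on that scale.

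HIF is a pair of proteins, an oxygen-regulated alpha subunit (HIF-1alpha from Hif1a, HIF-2alpha from Epas1) and the constant partner ARNT. With oxygen present, the prolyl hydroxylases of the Egln genes mark the alpha subunit, and the VHL ubiquitin ligase then has it degraded. When oxygen is scarce the alpha subunit is stabilized and the pair binds DNA at a short core, ACGTG or GCGTG, near genes for glucose uptake, glycolysis, lactate export, mitophagy and vessel signaling. HIF control is therefore mainly at the level of protein, and RNA of the targets is commonly used as its readout. In renal carcinoma of the clear cell type, loss of VHL can switch on the same targets with oxygen present.

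Promoter sequences are shown for 6 members whose RNA is described below: 3 inducible genes with large differences between tumors (Bnip3, Adm and Slc2a1), 2 glycolytic enzymes (Ldha and Pgk1) and Car9, a target that did not follow the others. They were chosen after their values were seen. Each runs 5′ to 3′ on the strand of the gene from 250 bases before to 50 bases after the RefSeq start (build GRCm38.p6, not the build mm9 named for the deposited values), with every ACGTG or GCGTG on either strand in capitals. Ldha has a second RefSeq window, with 2 cores, which is not shown. For Adm and for the Ldha window shown, the 30 bases from the start were in no GENCODE M21 transcript of the gene.
Bnip3, chr7:138909457-138909756, minus strand: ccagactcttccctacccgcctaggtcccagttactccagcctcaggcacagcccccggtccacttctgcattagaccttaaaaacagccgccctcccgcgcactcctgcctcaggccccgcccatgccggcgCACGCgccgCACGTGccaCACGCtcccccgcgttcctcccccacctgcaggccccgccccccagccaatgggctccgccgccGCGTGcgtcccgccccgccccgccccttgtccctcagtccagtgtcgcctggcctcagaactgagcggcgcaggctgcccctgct
Adm, chr7:110627407-110627706, plus strand: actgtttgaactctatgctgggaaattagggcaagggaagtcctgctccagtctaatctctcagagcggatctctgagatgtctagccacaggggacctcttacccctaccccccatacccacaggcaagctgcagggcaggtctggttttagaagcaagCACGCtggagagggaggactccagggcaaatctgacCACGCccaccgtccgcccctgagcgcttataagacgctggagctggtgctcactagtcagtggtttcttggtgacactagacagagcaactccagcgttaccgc
Slc2a1, chr4:119108495-119108794, plus strand: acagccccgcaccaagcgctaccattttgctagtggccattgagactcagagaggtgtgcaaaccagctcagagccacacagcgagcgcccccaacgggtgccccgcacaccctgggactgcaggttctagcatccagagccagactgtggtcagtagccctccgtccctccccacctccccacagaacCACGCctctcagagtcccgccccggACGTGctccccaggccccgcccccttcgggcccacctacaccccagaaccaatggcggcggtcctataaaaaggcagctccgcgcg
Ldha, chr7:46845554-46845853, plus strand: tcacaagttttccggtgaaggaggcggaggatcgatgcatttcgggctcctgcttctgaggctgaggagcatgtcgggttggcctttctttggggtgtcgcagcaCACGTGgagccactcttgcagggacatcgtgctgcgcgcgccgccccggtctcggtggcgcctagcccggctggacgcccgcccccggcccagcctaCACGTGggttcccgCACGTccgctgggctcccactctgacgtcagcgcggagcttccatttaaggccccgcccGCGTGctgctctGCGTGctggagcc
Pgk1, chrX:106186850-106187149, plus strand: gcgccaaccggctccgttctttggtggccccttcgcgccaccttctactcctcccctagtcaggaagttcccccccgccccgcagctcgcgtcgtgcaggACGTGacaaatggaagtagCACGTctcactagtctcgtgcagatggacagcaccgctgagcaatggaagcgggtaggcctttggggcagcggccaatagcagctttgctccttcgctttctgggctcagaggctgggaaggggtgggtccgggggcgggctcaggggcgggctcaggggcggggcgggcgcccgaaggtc
Car9, chr4:43506776-43507075, plus strand: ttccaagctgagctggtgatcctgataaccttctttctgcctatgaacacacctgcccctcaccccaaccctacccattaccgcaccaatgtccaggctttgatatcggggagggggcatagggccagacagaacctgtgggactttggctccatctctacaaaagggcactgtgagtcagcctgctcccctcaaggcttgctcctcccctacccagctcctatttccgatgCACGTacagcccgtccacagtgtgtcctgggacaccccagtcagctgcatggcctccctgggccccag

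The core letters were present near the start of most members. Of 33 members with a RefSeq promoter, 31 held at least 1 core in at least 1 window of 300 bases (93.9%), against 46.7% of all 27025 genes with such a window and 66.6% of the 10057 of them that were tested in these tumors by symbol. HIF targets held it in 13 of 13 and core glycolytic enzymes in 12 of 14. A gene with several windows had more chances to hold a core. Per window, the share was 82.2% of 45 member windows and 43.8% of all 32851 windows. At least 2 cores were found in 25 members (75.8%), against 37.5% of the tested genes. The palindrome CACGTG, seen in Bnip3 and in Ldha above, holds ACGTG on both strands and counts as 2. A match shows that the letters are in the window and does not show binding.

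Genes of the hypoxia response and glycolysis had higher mean levels in subcutaneous tumors that grew beside an intra-kidney tumor, but none passed the test between groups. The mean was higher in 32 of 35 members, where 53.3% of all tested genes were higher, and the median difference was 0.26 against 0.01 over all genes. The count past the threshold was 0 of 35 (limma, Benjamini-Hochberg adjusted p of 0.432 or more), where the percentage of all genes called was 0. At an unadjusted p under 0.05 there were 5 members, all higher with an intra-kidney tumor (Adm, Bnip3, Pdk1, Slc2a1 and Ldha), against 5.86% of all genes in that direction and 5.62% in the other, and limma voom on recovered reads also called 0. In 0 of 35 members did the groups separate without overlap, where 0.278% of all genes had every IK tumor above every tumor alone and 0.2% every IK tumor below. The member count stayed at 0 also where other genes were called, without replicate 2 of the IK group (1.22% of all genes, 0.178% called higher) and with sample weights (3.89%, 0.957% called higher).

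**Figure D1:**
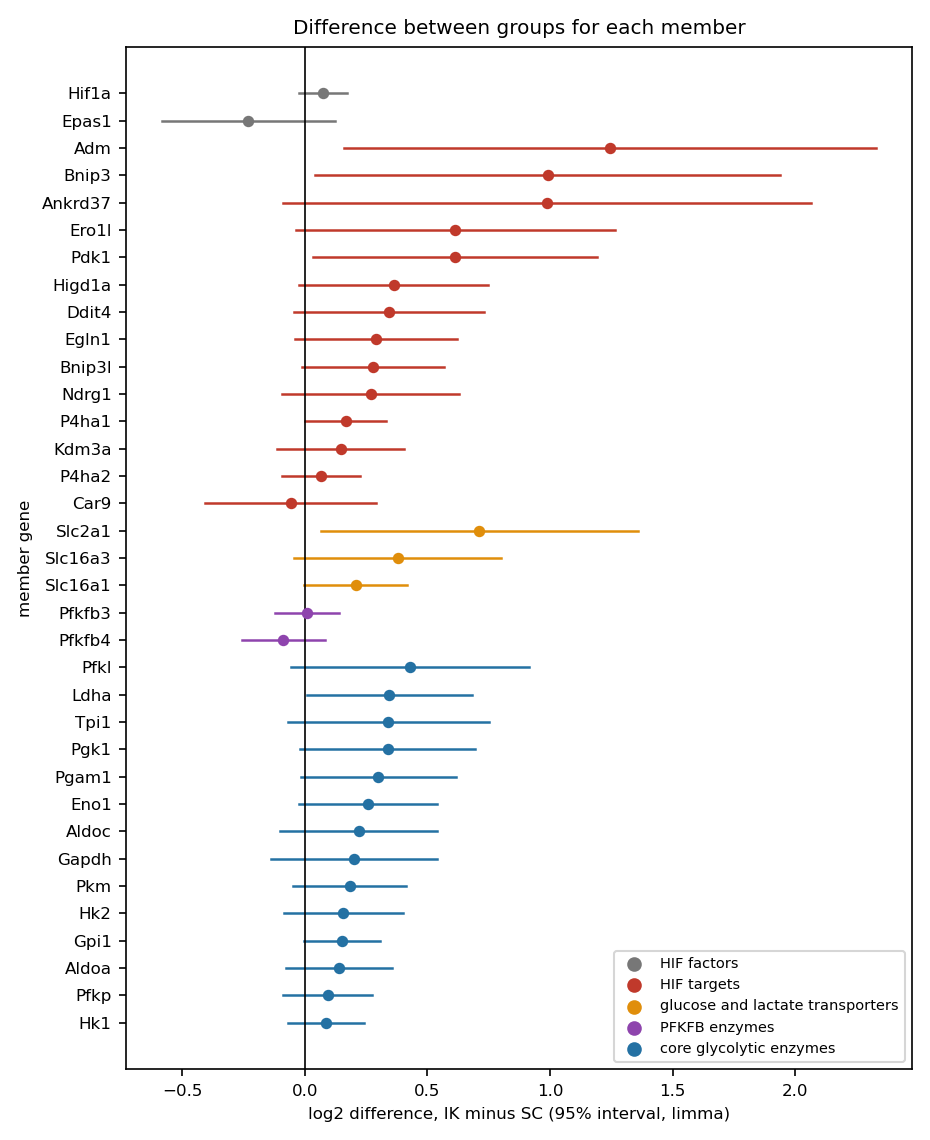
Log2 difference (IK minus alone, x axis) with its 95% interval from limma for each of the 35 members, n = 6 tumors per group, colored by role. Points lie right of 0 for 32 members, from 1.25 for Adm to -0.23 for Epas1, and none passed the adjusted threshold.

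Of the 2 HIF subunits, Hif1a had a slightly higher mean in the IK group and Epas1 a lower one. Hif1a was nearly level across tumors, at 8.65, 8.73 and 8.76 (lowest, median and highest log2 CPM) in the IK group and 8.47, 8.67 and 8.74 alone, a difference of 0.07 ± 0.05 (SE, limma, adjusted p = 0.491). Its 12 values spanned 0.29 log2 units, against a median span of 0.39 over all tested genes. Epas1, which endothelium expresses strongly, lay at 4.81, 5.15 and 5.34 in the IK group and at 4.72, 5.35 and 5.75 alone, a difference of -0.23 ± 0.16 (SE, limma, adjusted p = 0.543). Per kilobase of exon Hif1a stood at 71.7 ± 2.08 CPM and Epas1 at 6.15 ± 0.91 CPM in the IK group, and at 68.2 ± 4.73 and 7.35 ± 1.87 CPM alone (SD, n = 6). Hif1a was thus the more abundant subunit transcript in both groups, with no overlap between the 2 genes.

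Among the 5 roles, HIF targets outside glycolysis had the widest range of differences, from -0.06 to 1.25, with a median of 0.32 and higher means in 13 of 14. Adm encodes adrenomedullin, a vessel-dilating peptide. Its level was 2.07, 2.69 and 5.001 (lowest, median and highest log2 CPM) in the IK group and 1.42, 1.84 and 2.70 alone. The 3 lowest IK tumors lay inside the alone range, and replicates 1 (4.46), 4 (3.27) and 6 (5.001) stood above it. The difference was 1.25 ± 0.50 (SE, limma, adjusted p = 0.432), 2.37-fold as a ratio of geometric means.

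Bnip3 encodes a mitochondrial outer membrane protein that directs mitophagy. Its level was 5.46, 6.50 and 7.98 (lowest, median and highest log2 CPM) in the IK group and 4.996, 5.59 and 6.86 alone, a difference of 0.99 ± 0.44 (SE, limma, adjusted p = 0.432). The highest tumor alone, replicate 6, lay above 4 of the 6 IK tumors. Its relative Bnip3l, which also removes mitochondria from maturing red cells, differed by 0.28 ± 0.13 with the same order of the top tumors. Of the 50-base stretches in Bnip3 transcripts, 47.2% also occur in transcripts of 6 other annotated genes, so that its level depends on how such reads were counted, which is not given in the sources used here.

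Pdk1 encodes a kinase that inhibits pyruvate dehydrogenase and so holds pyruvate back from the mitochondrion. It lay at 4.32, 5.10 and 5.80 (lowest, median and highest log2 CPM) in the IK group and 3.96, 4.54 and 5.30 alone, a difference of 0.61 ± 0.27 (SE, limma, adjusted p = 0.432). Ero1l, an oxidase of the endoplasmic reticulum that drives disulfide formation, lay at 8.09, 8.87 and 10.01 in the IK group and 7.96, 8.34 and 9.14 alone, a difference of 0.61 ± 0.30 (adjusted p = 0.445). In both genes the groups overlapped, and replicates 1 and 6 of the IK group were the highest tumors.

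Ankrd37, a small ankyrin repeat protein gene, differed by 0.99 ± 0.50 (SE, limma, adjusted p = 0.454). It was measured from as few as 30 reads in the lowest tumor, so counting error adds to its spread of 1.17 and 0.68 (SD in the IK group and alone). Smaller differences were seen for Higd1a, a mitochondrial protein of hypoxic cells (0.36), Ddit4, an inhibitor of mTOR signaling (0.34), the prolyl hydroxylase gene Egln1 (0.29) and Ndrg1, a stress-response gene (0.27). The histone demethylase gene Kdm3a differed by 0.15. The collagen prolyl hydroxylase genes P4ha1 and P4ha2 differed by 0.17 and 0.07.

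Car9 encodes carbonic anhydrase IX, a cell-surface enzyme used widely as a hypoxia marker. It was the single HIF target with a lower mean in the IK group, at -0.06 ± 0.16 (SE, limma, adjusted p = 0.886). Its levels were 0.12, 0.57 and 1.04 (lowest, median and highest log2 CPM) in the IK group and 0.30, 0.61 and 0.91 alone, near the filter, with 59 reads in the lowest tumor. Replicates 6 of both groups, high for most HIF targets, were among the 3 lowest tumors for Car9 (0.35 and 0.30). Its direction turned to 0.06 with quantile normalization and to 0.03 without replicate 4 of the IK group. Per kilobase of exon Car9 stood at 0.66 ± 0.15 CPM in the IK group, while Car12, a related membrane carbonic anhydrase, stood at 10.2 ± 2.001 CPM (SD, n = 6).

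**Figure D2:**
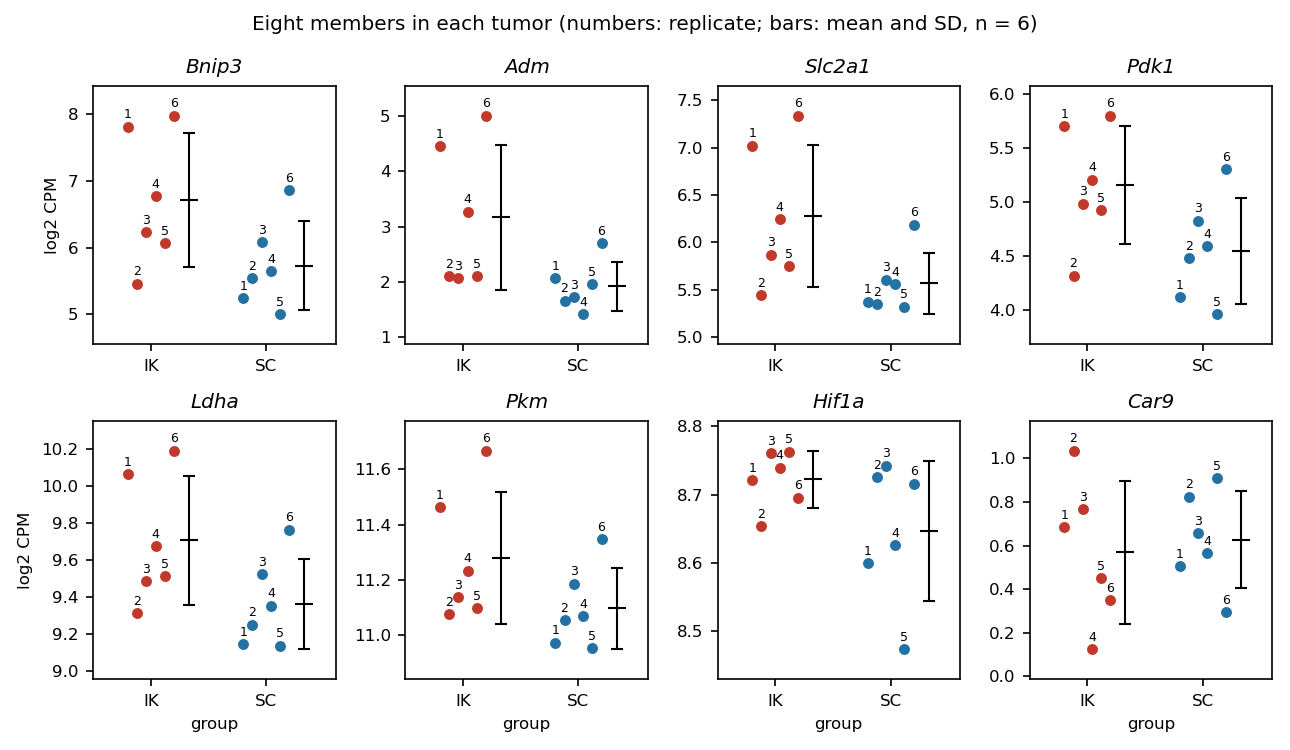
Log2 CPM of 8 members in each tumor, with the replicate number beside each point and the mean and SD (n = 6) as black bars, for the IK group (red) and tumors alone (blue); each panel has its own axis, which does not start at 0. For Bnip3, Adm, Slc2a1, Pdk1, Ldha and Pkm, replicates 1 and 6 of the IK group are the highest tumors, while Hif1a and Car9 lack this order.

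The glucose and lactate transporters had higher means in all 3 genes, with a median difference of 0.38. Slc2a1, the glucose transporter GLUT1, lay at 5.44, 6.06 and 7.34 (lowest, median and highest log2 CPM) in the IK group and 5.32, 5.46 and 6.19 alone, a difference of 0.71 ± 0.30 (SE, limma, adjusted p = 0.432). Replicates 1 (7.02), 4 (6.25) and 6 (7.34) of the IK group lay above every tumor alone, and replicate 6 alone (6.19) lay above the other 5 of its group. Slc16a3, the lactate exporter MCT4, differed by 0.38 ± 0.19 (adjusted p = 0.456), and Slc16a1, the lactate carrier MCT1, by 0.21 ± 0.10 (adjusted p = 0.439). Per kilobase of exon in the IK group, Slc16a1 stood at 50.1 ± 6.98 CPM and the inducible Slc16a3 at 1.34 ± 0.44 CPM (SD, n = 6). The neuronal-type glucose transporter gene Slc2a3 stood at 0.37 ± 0.08 CPM on that scale, against 24.9 ± 13.6 CPM for Slc2a1.

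The PFKFB enzymes make and remove fructose 2,6-bisphosphate, the activator of phosphofructokinase, and differed little between groups. Pfkfb3 differed by 0.01 ± 0.06 (95% interval -0.12 to 0.14) and Pfkfb4 by -0.09 ± 0.08 (-0.26 to 0.08; SE, limma, adjusted p = 0.956 and 0.629). The sign of the Pfkfb3 difference is not settled, since it was negative in 6 of the alternative fits. Replicate 6 of the IK group, the highest tumor for most members, was among the 3 lowest for Pfkfb4 (4.33). Both genes were well measured, with at least 1049 reads in every tumor.

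Core glycolytic enzymes had higher means in 14 of 14 genes, with a median difference of 0.21 and a range from 0.09 for Hk1 to 0.43 for Pfkl. In order of the pathway, hexokinase traps glucose in the cell, and its genes Hk1 and Hk2 differed by 0.09 and 0.16. Gpi1, which isomerizes glucose 6-phosphate, differed by 0.15. Of the phosphofructokinase genes, which encode the committed step, Pfkl differed by 0.43 ± 0.22 (SE, limma, adjusted p = 0.459) and Pfkp by 0.09 ± 0.08 (adjusted p = 0.631).

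The aldolase genes Aldoa and Aldoc, for the enzyme that splits the sugar into 2 trioses, differed by 0.14 and 0.22, and Tpi1, which interconverts those trioses, by 0.34. Pgk1, which makes the first ATP of the pathway, lay at 8.59, 8.84 and 9.48 (lowest, median and highest log2 CPM) in the IK group and 8.36, 8.59 and 9.05 alone, a difference of 0.34 ± 0.16 (SE, limma, adjusted p = 0.444). Pgam1 and Eno1, the mutase and the enolase that follow, differed by 0.30 and 0.26. Pkm, whose product pyruvate kinase makes pyruvate, differed by 0.18 ± 0.11 (adjusted p = 0.483).

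Ldha, which reduces pyruvate to lactate, lay at 9.31, 9.59 and 10.19 (lowest, median and highest log2 CPM) in the IK group and 9.14, 9.30 and 9.76 alone. The difference was 0.34 ± 0.16 (SE, limma, adjusted p = 0.432). As for Pgk1, the groups overlapped: replicate 6 alone lay above 4 of the 6 IK tumors.

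Some glycolytic genes have processed copies elsewhere in the genome, which limits what their levels mean. Of the 50-base stretches in Gapdh transcripts, 24.7% also occur in annotated pseudogenes, 213 of them, and the share was 53.9% for Pgk1, 36.2% for Pgam1, 19.0% for Eno1 and 14.2% for Pkm. Gapdh was read at 3.97 ± 1.05 CPM per kilobase of exon in the IK group, against 338 ± 95.7 CPM for Tpi1, the enzyme beside it in the pathway, and 230 ± 60.8 CPM for Pgk1 (SD, n = 6). The cause of the low Gapdh value was not tested. The level of Gapdh is uncertain, and its difference of 0.20 ± 0.16 (SE, limma, adjusted p = 0.574) is given for completeness.

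Isoenzymes were compared by level per kilobase of exon, with the exons of all annotated transcripts of a gene counted. In the IK group Aldoa stood at 276 ± 44.4 CPM and Aldoc at 12.5 ± 3.04 CPM, Pkm at 503 ± 87.5 CPM and the liver and red cell kinase Pklr at 28.9 ± 5.78 CPM, and Ldha at 259 ± 64.6 CPM and Ldhb at 2.66 ± 0.82 CPM (SD, n = 6). Enolases were ordered Eno1 (110 ± 25.6), the muscle form Eno3 (32.1 ± 1.93) and the neuronal form Eno2 (12.3 ± 7.49). Of the phosphofructokinase genes, Pfkl (25.02 ± 8.49 CPM) and the muscle form Pfkm (23.5 ± 1.06 CPM) lay within the spread of Pfkl, while Pfkp (17.96 ± 2.33 CPM) lay below Pfkm by more than either SD. That order depends on the exon length, 13401 bases for Pfkp, 6675 for Pfkl and 3340 for Pfkm. Before division by length Pfkp was the highest in the IK group, at a mean of 7.90 log2 CPM. Pfkl stood at 7.32 and Pfkm at 6.29, so which gene prevailed is not settled. Hk1 (18.3 ± 2.30 CPM) and Hk2 (15.5 ± 2.80 CPM) overlapped in range, while before division by length Hk1 was higher (means of 7.28 and 6.51 log2 CPM). Among the 14 core glycolytic enzymes Pfkl had the widest span over the 12 tumors, 1.45 log2 units, and Pfkp the narrowest, 0.46.

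Set side by side, HIF targets had a larger median difference between groups than core glycolytic enzymes, 0.32 (14 genes) against 0.21 (14 genes), a gap of 0.11. The lists overlapped, with quartiles of 0.19 to 0.61 for HIF targets and 0.15 to 0.33 for glycolytic enzymes. No test is given, because the lists were chosen with earlier results known. The gap was 0.22 when means over genes replaced medians, where Adm, Bnip3 and Ankrd37 weigh more, and 0.06 after quantile normalization. It was 0.09 with the inducible enzyme genes Ldha, Pgk1, Aldoa, Eno1 and Hk2 counted as HIF targets. With the transporters and PFKFB enzymes counted there instead, it was 0.08. Without replicate 6 of the IK group the medians were 0.23 and 0.12, and without replicate 1 they were 0.23 and 0.15. Spread between tumors followed the same order, with a median residual SD of 0.33 for HIF targets and 0.27 for glycolytic enzymes, against 0.11 over all tested genes. Within the HIF targets the residual SD ran from 0.14 for P4ha2 to 0.97 for Adm.

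Most members ordered the tumors alike. Replicates 1 and 6 of the IK group were the 2 highest of the 12 tumors in 30 of 35 members, an order found in 3.28% of all tested genes. It held for 13 of 14 HIF targets, 3 of 3 transporters and 14 of 14 core glycolytic enzymes, and the 5 exceptions were Hif1a, Epas1, Car9, Pfkfb3 and Pfkfb4. In the alone group, replicate 6 was the highest tumor in 26 of 35 members (30% of all genes) and replicate 5 the lowest in 17 (30.9% of all genes). The SD was larger in the IK group than alone in 31 of 35 members, where 50.6% of all genes had that order. The replicates named here were picked out after the values were seen. The shares of all genes are therefore no test of these counts. The 2 high tumors of the IK group also enter its SD, so the SD count is not a separate result.

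**Figure D3:**
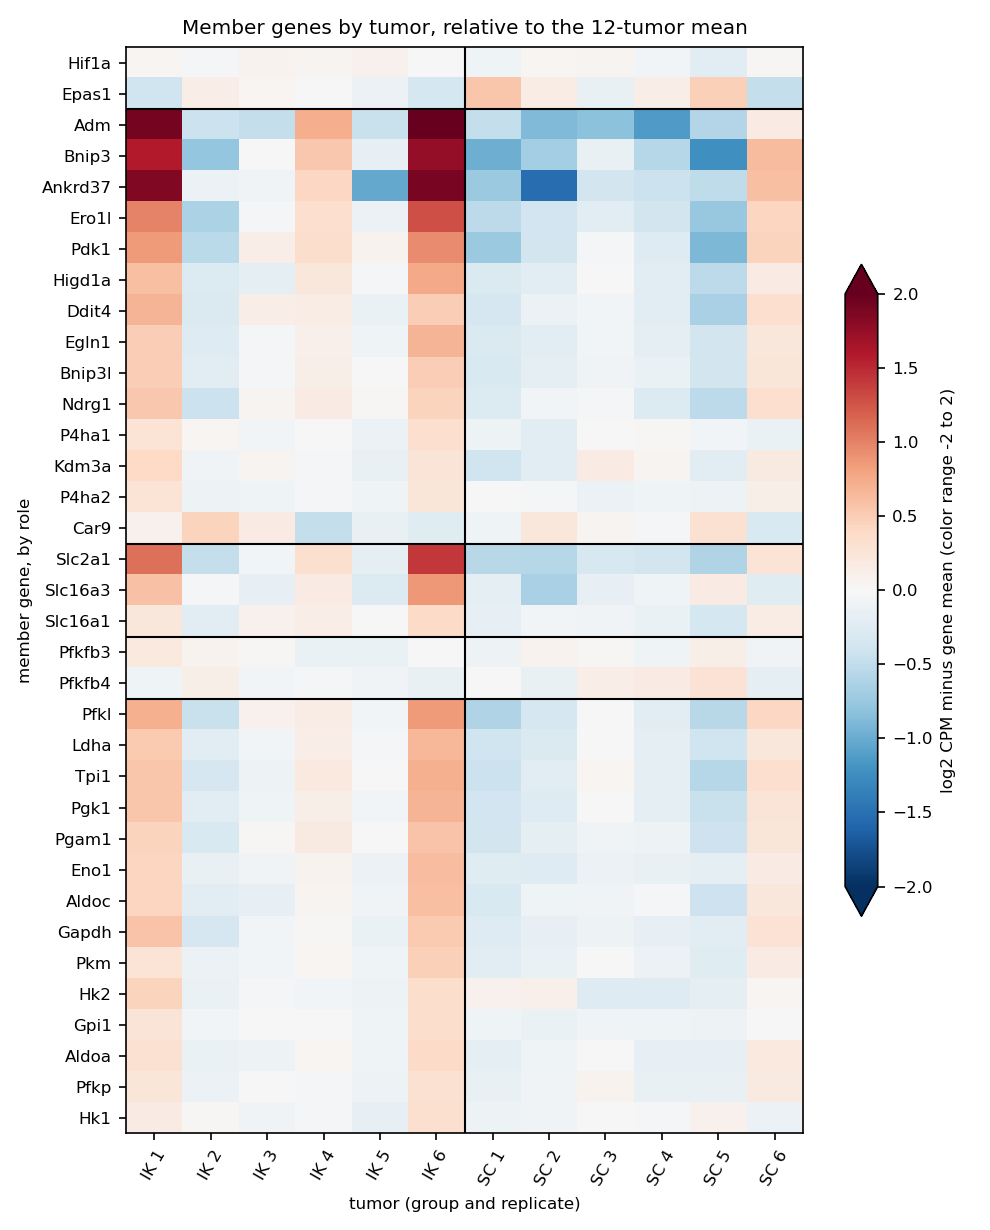
Log2 CPM of the 35 members (rows, by role, lines between roles) in the 12 tumors (columns), as the deviation of each value from the mean of its gene; red is higher, blue lower, and values beyond 2 take the end color. Columns IK 1 and IK 6 are red in most rows and SC 6 is pale red, while the rows of Hif1a, Epas1, Car9, Pfkfb3 and Pfkfb4 lack this pattern.

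Averaged over the 14 HIF targets, the deviation from the gene means was 0.79 and 0.84 log2 units in replicates 1 and 6 of the IK group. The other 4 IK tumors lay between -0.26 and 0.19, inside the alone range of -0.46 to 0.25, whose upper end was replicate 6. Averaged over the 14 core glycolytic enzymes, the same pair of IK tumors stood at 0.42 and 0.53, and the other 4 between -0.20 and 0.06, again inside the alone range of -0.28 to 0.19. HIF targets thus deviated more than glycolytic enzymes in the high tumors, by 0.37 and 0.31 in replicates 1 and 6 of the IK group. In tumors alone the HIF targets stood below the glycolytic enzymes by 0.08 to 0.20, except in replicate 6, where they stood 0.06 above.

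**Figure D4:**
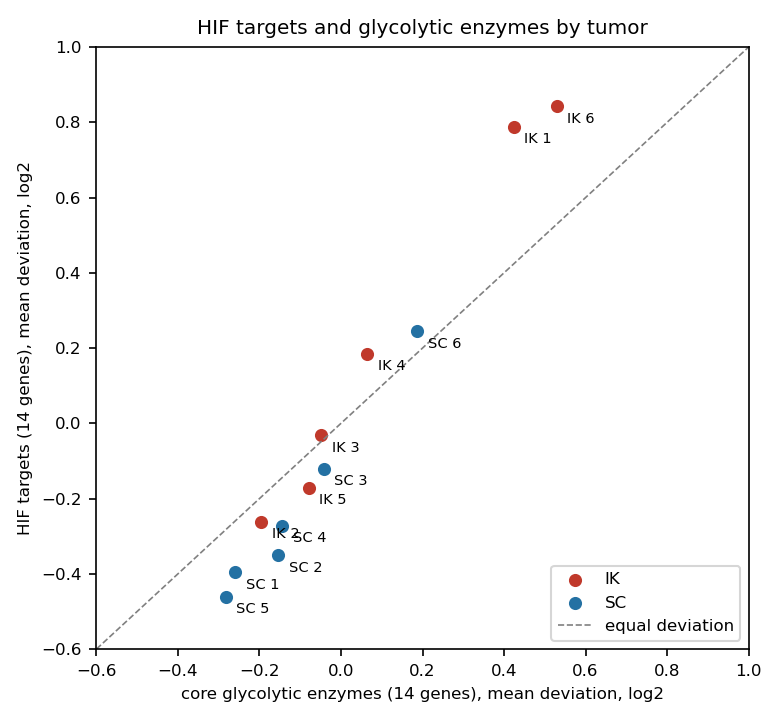
Mean log2 deviation from the gene means over the 14 HIF targets (y axis) against that over the 14 core glycolytic enzymes (x axis), 1 point per tumor, IK group red and tumors alone blue; the dashed line marks equal deviation. IK 1 and IK 6 lie at 0.79 and 0.84 on the y axis, above the line, and the remaining IK tumors lie among the tumors alone.

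Further genes of the pathway, from lists written down by symbol, were read from the same fit. Of the HIF machinery, 9 of 11 genes were tested, 0 passed the threshold, and differences stayed between -0.02 and 0.07, with a median of 0.05. Arnt, the constant partner, differed by 0.01 ± 0.04. The smallest unadjusted p-values were those of Hif1an, an asparagine hydroxylase that blocks HIF activity (0.07 ± 0.05), Vhl (0.06 ± 0.05) and Rbx1, a subunit of the VHL ligase (0.04 ± 0.03; SE, limma, adjusted p = 0.531, 0.592 and 0.592).

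Of 33 other hypoxia-inducible genes, 30 were tested, with a median of 0.18 and 0 past the threshold. Means were higher in the IK group for 23 (76.7%), against 53.3% of all tested genes. Replicates 1 and 6 of the IK group were the 2 highest tumors in 16 of the 30, against 3.28% of all tested genes. Tfrc, the transferrin receptor that imports iron, lay at 6.72, 7.31 and 7.56 (lowest, median and highest log2 CPM) in the IK group and 6.51, 6.64 and 7.01 alone, a difference of 0.53 ± 0.14 (SE, limma, adjusted p = 0.432). Unlike most members, Tfrc was high in replicates 3 to 6 of the IK group and not in replicate 1 (6.86). Replicate 2 was the lowest of the IK group (6.72), and both lay below the highest tumor alone (7.01). It passed the threshold without replicate 2 of that group (adjusted p = 0.039) and with sample weights (0.0384).

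Stc2, which encodes the secreted glycoprotein stanniocalcin 2, had the opposite direction, at -0.90 ± 0.26 (SE, limma, adjusted p = 0.432), at a low level of -0.99, -0.44 and 0.03 (lowest, median and highest log2 CPM) in the IK group and -0.05, 0.19 and 1.37 alone. Car12 differed by 0.32 ± 0.12 (adjusted p = 0.432). Vegfa, the vessel growth factor gene, differed by 0.15 ± 0.13 (adjusted p = 0.613), with replicates 1 (7.56) and 6 (7.63) of the IK group again the highest. Vegfa was named after its values were seen, as were the isoenzyme genes, Slc2a3 and Arnt.

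Of 36 other genes of glucose use, 30 were tested, the median was 0.02 and 0 passed the threshold. Means were higher for 17 (56.7%), near the 53.3% of all tested genes. Hk3, a hexokinase of myeloid cells, lay at 2.77, 3.06 and 4.78 (lowest, median and highest log2 CPM) in the IK group and 3.44, 4.03 and 4.97 alone, a difference of -0.86 ± 0.34 (SE, limma, adjusted p = 0.432). Replicate 2 of the IK group held its highest value there. Without that tumor the adjusted p was 0.0372, with 0.0369 under sample weights (limma). In those fits 1.22% and 3.89% of all genes passed. Pgm1, which links glycogen to glucose 6-phosphate, differed by 0.36 ± 0.16, and Dlat, a subunit of pyruvate dehydrogenase, by 0.13 ± 0.05 (adjusted p = 0.432 for both). Dlat passed with sample weights (limma, adjusted p = 0.0457), where 3.89% of all genes passed. The pentose phosphate genes G6pdx, Pgd, Tkt and Taldo1, also named after their values were seen, differed by -0.02, 0.05, 0.05 and 0.01.

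Marker levels of other cell types varied between the tumors of both groups. Muscle markers (15 of 15 in the table) summed to 58.2 to 278 CPM in the IK group and 7.32 to 621 CPM alone; replicates 1 of the IK group (58.2) and 6 alone (7.32) were the lowest of their groups, while replicate 6 of the IK group (185) was not. Endothelial markers (10 of 10) summed to 208 to 287 CPM and 199 to 349 CPM, fibroblast markers (9 of 9) to 4930 to 12795 CPM and 5064 to 16425 CPM, and replicate 6 was the lowest of its group for both lists in both groups. Replicate 1 of the IK group stood at 226 CPM for endothelium and at 7125 CPM for fibroblasts, where replicate 4 was also lower (6197). For T cell and cytotoxic markers replicate 1 of the IK group (23.3 CPM) lay above replicates 3 (14.3) and 4 (14.2). These markers (10 of 10) summed to 13.3 to 109 CPM and 20.8 to 128 CPM, with replicate 6 again lowest in each group. All 10 had lower means in the IK group and an unadjusted p under 0.05, against 5.62% of all genes in that direction (limma). Of these markers 0 passed the adjusted threshold, where the percentage of all genes called was 0. Cd4, the most abundant, differed by -0.85 ± 0.33 (SE, limma, adjusted p = 0.432). Genes of a list can vary together, so a count within a list is not a count of independent results. Macrophage markers (10 of 10) summed to 2333 to 3171 CPM and 2305 to 3054 CPM. Means were lower in the IK group for 9 of 10 macrophage, 9 of 10 endothelial and 8 of 9 fibroblast markers. Their median differences were -0.14, -0.13 and -0.37, and none of these markers had an unadjusted p under 0.05 (limma). Of the other lists, fat cell genes (6 of 8 in the table) summed to 19.99 to 49.4 CPM and 26.1 to 74.3 CPM, neutrophil genes (4 of 11) to 23.0 to 46.0 CPM and 25.3 to 53.5 CPM, and red cell genes (5 of 11) to 40.4 to 59.6 CPM and 33.8 to 54.2 CPM. Proliferation genes (7 of 7) summed to 1125 to 1484 CPM and 1074 to 1283 CPM and had higher means in 7 of 7. Fat cell genes had lower means in the IK group in 5 of 5 tested, with a median difference of -1.15, a range of -1.82 to -0.20 and 3 at an unadjusted p under 0.05 (limma, 0 past the adjusted threshold). Neutrophil genes were lower in 4 of 4 tested, with a median of -0.27 and 1 at an unadjusted p under 0.05. Red cell genes were higher in 5 of 5 tested, with a median of 0.30 and 3 at an unadjusted p under 0.05 (limma). Of the 7 proliferation genes, all higher, 4 also had an unadjusted p under 0.05. Over all genes, 5.62% were lower and 5.86% higher at that p. Of the muscle genes 8 of 14 tested were lower, with a median of -0.34, so that Acta1, the most abundant, lay opposite to most of its list. The most abundant genes of the remaining lists differed by 0.13 (Acta1, muscle), 0.32 (Hbb-bs, red cell), -0.18 (Pecam1, endothelium), -0.20 (Lipe, fat), -0.45 (Csf3r, neutrophil), -0.15 (C1qa, macrophage), -0.44 (Col3a1, fibroblast), -0.04 (Krt8, epithelium) and 0.12 (Mki67, proliferation), none past the threshold.

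The keratins Krt8 and Krt18, Epcam and other epithelial genes were listed as markers of the tumor cells. Which cells of the whole tumor carried these transcripts was not tested. This list (7 of 8 in the table) summed to 2534 to 2669 CPM in the IK group and 2416 to 3025 CPM alone, and 0 of 6 skin keratinocyte markers were in the table. Of the epithelial genes 6 of 7 had lower means in the IK group, with a median difference of -0.06. Recovered reads ranged from 53312559 to 66142468, with replicate 6 of the IK group the deepest and replicate 6 alone the shallowest library. The part of these markers in the member differences was not tested. With the mean level of the muscle genes in each tumor as a covariate, the median differences of HIF targets and glycolytic enzymes were 0.30 and 0.20. Without the covariate they were 0.32 and 0.21. That fit has no separate measure of muscle and cannot tell muscle content apart from other differences between tumors.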

How the data were processed

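RNA of 12 whole tumors, 6 per group, was sequenced. The authors deposited log2 values for 14496 genes. Build mm9, TopHat 1.4.1, CASAVA 1.8.2, limma and HTSeq are listed in the submitters' processing notes. Settings, strand handling and annotation are not given in the sources used here, so reads of antisense and overlapping genes cannot be told apart. In every tumor the deposited log2 values equal log2 CPM with 0.5 reads added: 100% gave whole reads within 0.001. Each tumor had 53312559 to 66142468 recovered reads, and no pair within a group was a duplicate (chi-square over degrees of freedom between 13.2 and 164). Symbols came from GENCODE M21 by identifier (14004 of 14496 genes). Exon lengths and shared 50-base stretches came from that annotation, which is of another build.

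Genes reaching log2 CPM 0 in 6 or more tumors entered limma 3.58.1 (R 4.3.3) (empirical Bayes, trend, two-sided, Benjamini-Hochberg over 14008 genes, threshold 0.05). The fit was tested on simulated data in which genes varied independently, whereas most members here ordered the tumors alike. Members and lists were chosen with earlier results of these data known. The rule named all members, the 3 further pathway genes of smallest p in each list, and the top gene of each marker list. Alternatives were other filters and scalings, other variance models, weighted samples, the replicate number as a block, a muscle covariate, other memberships, means for medians, and leaving out each tumor. A count-based fit, limma voom, was run on recovered reads and chosen after the data were seen.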

Additional observations from a re-analysis of the deposited data

Results flagged for a closer look

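In 88 sets of 6 tumors (35 members and 9 further pathway genes in both groups), the highest or lowest tumor was searched for a gap to its neighbor above Dixon's 95% critical share of the group's range. There were 6 such tumors, and chance alone gives about 1 in 20 sets. Replicate 6 alone stood above the other 5 of its group in 3 members: Slc2a1 at 6.19 (others 5.32 to 5.61), Gapdh at 4.19 (3.64 to 3.80) and Eno1 at 9.22 (8.79 to 8.94), all in log2 CPM. Replicate 2 of the IK group stood high for Hk3 at 4.78 (others 2.77 to 3.19) and low for Dlat at 6.00 (6.17 to 6.26). Replicate 3 of the IK group stood high for Hif1an at 6.52 (6.24 to 6.30).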

How the results depend on the processing

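The count of members past the threshold was 0 in the main analysis and in all 22 alternative fits (limma), and the number of members with a higher mean in the IK group was 31 to 33, not always the same genes, since Car9 and Pfkfb3 changed sign. Over all genes the count of 0 became 1 with no variance trend, 545 with sample weights and 171 without replicate 2 of the IK group (0 to 171 over the fits that leave out 1 tumor). Further pathway genes past the threshold were 3 with sample weights (Tfrc, Hk3 and Dlat), where 3.89% of all genes passed. Without replicate 2 of the IK group they were 2 (Tfrc and Hk3), where 1.22% of all genes passed. Over the fits that leave out 1 tumor, 0 to 2 further pathway genes passed. The median difference ranged from 0.23 to 0.41 for HIF targets and from 0.12 to 0.28 for core glycolytic enzymes when single tumors were left out, lowest without replicate 6 and highest without replicate 2 of the IK group. The Car9 difference turned to 0.057 with quantile normalization and ran from -0.151 to 0.031 when single tumors were left out (0.031 without replicate 4 of the IK group). The Pfkfb3 difference ran from -0.029 to 0.037 when single tumors were left out; it turned to -0.0032 with sample weights, -0.029 and -0.0030 without replicates 1 and 2 of the IK group, and -0.01, -0.0082 and -0.0043 without replicates 1, 4 and 6 alone; the cause was not tested. With the replicate number as a block, 0 members passed and the medians stayed at 0.32 and 0.21. The correlation of deviations between same-numbered tumors was positive for replicates 5 (0.17) and 6 (0.45) and negative for the other 4 (lowest -0.31), so the numbers were not read as pairs. Counting error matters mainly for Ankrd37 and Car9, with 30 and 59 reads in their lowest tumors.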
